A study of Talpa occidentalis with 24 samples.

Results

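Long bivalent domains are stretches of the mole genome longer than 5 kb that a chromatin state map assigned, without a break, to the bivalent promoter state in at least 1 gonad tissue. They were taken from the state maps of the ovarian portion of the ovotestis, the testicular portion of the ovotestis and the testis, on scaffolds 1 to 14, 16 and 17 of the talOcc4 assembly, and overlapping ones were merged over the 3 tissues. The members were thus selected on measured state calls. This gave 510 domains, out of 13953 merged bivalent regions of any length on these 16 scaffolds and 19636 on all scaffolds. The other 13443 regions of the 16 scaffolds hold no segment over 5 kb and are called shorter regions below. Because the bivalent calls themselves chose the members, the bivalent share of a domain is given as a description throughout and tests nothing.

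The maps come from chromatin immunoprecipitation with sequencing (ChIP-seq) of gonads from wild-type Iberian moles, Talpa occidentalis, at postnatal day 7. The females have ovotestes, in which an ovarian and a testicular portion lie side by side in 1 gonad. Each of the 3 tissues has 8 libraries, 2 replicates for each of 4 histone marks, which makes 24 libraries in all. The marks are H3K4me3, H3K4me1, H3K27ac and H3K27me3, and chromatin was sheared from fixed tissue. The labels name that tissue as testis or as the ovarian or testicular part of the ovotestis. No source used here says how the parts were separated or how many animals went into a library.

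In textbook terms, bivalent chromatin carries H3K4me3, the mark of promoters that can be active, together with H3K27me3, which the Polycomb complex PRC2 deposits on silent developmental genes. It was described in embryonic stem cells, where it marks the promoters of genes for transcription factors and signalling proteins before a lineage is chosen, and later in germ cells. Such chromatin usually resolves when a cell type switches the gene on and loses H3K27me3, or keeps it off and loses H3K4me3. In whole tissue, a stretch on which every cell carries both marks and a stretch on which different cells carry either mark cannot be told apart.

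The authors combined all marks and replicates of a tissue into 1 map of 7 states in bins of 200 bp. The names are promoter, active enhancer, poised enhancer, bivalent promoter, undefined, gap and Polycomb repression. No source used here defines them by marks or says what gap covers. With 1 map per tissue there are no replicates at this level, so no difference between tissues below has a replicate check, no test was run, and the read depth behind a call is unknown. Genes are not named, because the gene models at hand lie on other assemblies, and positions are talOcc4 scaffold positions counted from 1.

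Most bivalent segments were short, and the long ones were few but held a large share of the bivalent bases. The ovarian portion had 355 segments over 5 kb among 10186 bivalent segments, the testicular portion 351 among 9591 and the testis 398 among 10373. They made up 3.485% of segments and 23.45% of bivalent bases in the ovarian portion, 3.66% and 23.4% in the testicular portion, and 3.84% and 23.9% in the testis. The median bivalent segment of any length was 600 bp long in each tissue. Long segments had a median of 7.0 kb in the ovarian portion, 6.8 kb in the testicular portion and 7.0 kb in the testis, and the longest reached 27.2 kb, 22.0 kb and 21.8 kb in the same tissues. There was no break in the lengths at the limit. Just inside it, at 5.2 kb, lay 24 segments of the ovarian portion, 24 of the testicular portion and 26 of the testis, and at exactly 5.0 kb, just outside, lay 29, 19 and 28.

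After merging, the 510 domains covered 4.23 Mb, which is 0.221% of the 1916 Mb on the 16 scaffolds. Their lengths ran from 5.2 to 34.8 kb with a median of 7.2 kb, and the middle 50% lay between 6.0 and 9.4 kb. Longer than 10 kb were 102 domains, longer than 15 kb 27 and longer than 20 kb 10. A segment over 5 kb was present in all 3 tissues in 236 domains (46.3%). It was present in both portions of the ovotestis but not the testis in 25, in the ovarian portion and the testis in 34, and in the testicular portion and the testis in 37. The remaining 178 were long in 1 tissue, 49 in the ovarian portion, 47 in the testicular portion and 82 in the testis. Domains long in every tissue had a median length of 8.4 kb, against 5.8 kb for those long in the ovarian portion alone, 6.0 kb for the testicular portion alone and 6.4 kb for the testis alone.

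Inside the domains, what was not bivalent was mainly Polycomb repression, and the enhancer states held the largest share in the ovarian portion. The bivalent state covered 87.4% of domain bases in the ovarian portion, 87.1% in the testicular portion and 92.6% in the testis. Polycomb repression covered 7.39% in the ovarian portion, 10.9% in the testicular portion and 6.17% in the testis. The active enhancer state covered 3.78% in the ovarian portion, 1.60% in the testicular portion and 0.894% in the testis, so the ovarian portion held the most. Poised enhancer followed the same order, with 1.02%, 0.227% and 0.151% in the ovarian portion, the testicular portion and the testis. The promoter state took 0.435% of domain bases in the ovarian portion, 0.166% in the testicular portion and 0.222% in the testis. No base of a domain was in the gap state in any tissue, and the undefined state covered at most 0.00473%.

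Taking only the bases of the domains that were not bivalent, Polycomb repression made up 58.5% of them in the ovarian portion, 84.4% in the testicular portion and 83.0% in the testis. The active enhancer state made up 29.9% in the ovarian portion, 12.5% in the testicular portion and 12.02% in the testis. Over the shorter regions, Polycomb repression made up 55.9% of the bases that were not bivalent in the ovarian portion, 72.4% in the testicular portion and 77.9% in the testis, so the lower Polycomb share of the ovarian portion was also seen outside the long domains. Over all bases of the 16 scaffolds, by contrast, the active enhancer state covered less in the ovarian portion, at 3.74%, than in the testicular portion, at 5.19%, or the testis, at 5.56%. Over all domains together, the order of the tissues was thus the reverse of their order over the scaffolds for this state. In the 123 domains of a dense stretch of scaffold 2, described below, active enhancer covered 8.26% in the ovarian portion, 1.88% in the testicular portion and 3.35% in the testis. In the 387 others it covered 2.34%, 1.51% and 0.100%. The testis also supplied the most long segments, 398, which favours a lower share of other states there. The shorter regions had the same order as all domains together, with 7.11% active enhancer in the ovarian portion, 4.09% in the testicular portion and 2.67% in the testis. That order is thus not particular to the long domains.

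**Figure D1:**
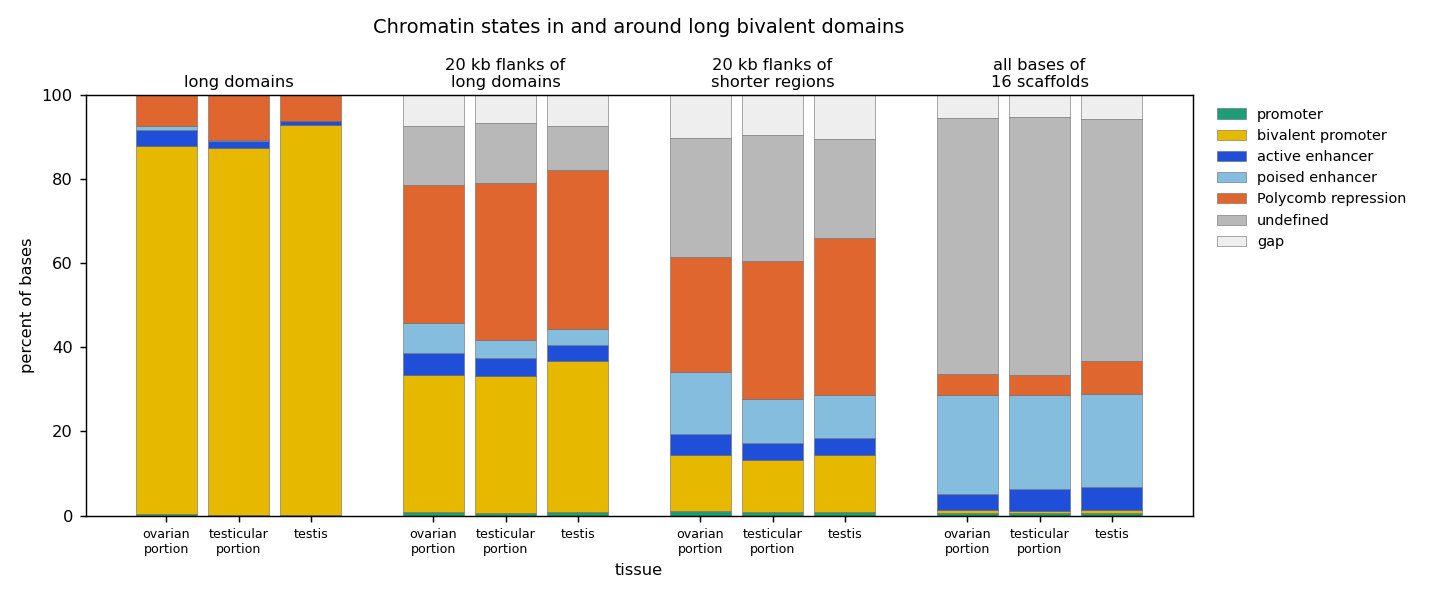
Stacked bars give the percent of bases in each of the 7 states (vertical axis) for the ovarian portion, the testicular portion and the testis (1 bar each), inside the 510 long domains, in the 20 kb on each side of them, in the 20 kb beside the 13443 shorter regions and over all bases of the 16 scaffolds. Bivalent bases fill 87.4%, 87.1% and 92.6% of the domains, a share the choice of domains sets, and 32.5%, 32.6% and 35.9% of their flanks, other long domains included.

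Most domains were mainly bivalent in every tissue. The bivalent state covered at least 50% of the domain in each of the 3 tissues for 423 of 510 (82.9%). All 236 domains long in every tissue did so, which their choice favours. Of the 49 long in the ovarian portion alone, 37 reached 50% in the testicular portion and 41 in the testis. Of the 47 long in the testicular portion alone, 40 did in the ovarian portion and 36 in the testis. Of the 82 long in the testis alone, 49 did in the ovarian portion and 55 in the testicular portion. Of all 5092 merged bivalent regions of at least 1 kb, 54.1% met the same limit, and nothing is read from the difference because the choice of domains used these calls. Taken tissue by tissue, 463 domains reached 50% in the ovarian portion, where 74.3% of all regions of at least 1 kb did, 464 in the testicular portion (74.5% of all regions) and 489 in the testis (83.5% of all regions). Fully bivalent from end to end were 206 domains in the ovarian portion, 187 in the testicular portion and 245 in the testis. No bivalent bin at all was present in 11 domains in the ovarian portion, 5 in the testicular portion and 2 in the testis. Bivalent cover under 25% was found in 28 domains in the ovarian portion, 13 in the testicular portion and 7 in the testis.

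Breaks within a domain were common. The bivalent state was split into several segments in 203 domains in the ovarian portion, 189 in the testicular portion and 160 in the testis. The bases between those segments were 65.5% Polycomb repression and 32.1% active enhancer in the ovarian portion. In the testicular portion they were 89.2% Polycomb repression and 9.39% active enhancer, and in the testis 88.5% and 9.16%. At least 1 bin of Polycomb repression lay in 253 domains in the ovarian portion, 301 in the testicular portion and 242 in the testis. At least 1 active enhancer bin lay in 104 domains in the ovarian portion, 51 in the testicular portion and 31 in the testis. The active bases were unevenly spread over the domains. In the ovarian portion they took 8.26% of the bases of the 123 domains in the dense stretch of scaffold 2 and 2.34% in the 387 others.

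Where a domain was long in all 3 tissues, its ends lay at nearly the same place in each. For these 236 domains, the outer edges of the bivalent state were compared in pairs of tissues, 472 edges per pair. The edges fell in the same 200 bp bin for 69.1% of edges between the ovarian and the testicular portion, 70.3% between the ovarian portion and the testis and 69.3% between the testicular portion and the testis. Within 400 bp of each other were 90.5%, 90.7% and 90.3% in the same pairs. The largest shift of an edge was 3.2 kb. Over all 510 domains, 314.8 kb of bases that were not bivalent lay outside the outermost bivalent segments in the ovarian portion, 307.2 kb in the testicular portion and 183.4 kb in the testis. These totals take in the whole length of domains with no bivalent bin, 11, 5 and 2 in the same tissues. They are another measure than the edge shares and are not compared with them.

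Apart from the longest, the 10 longest domains were bivalent over at least 91.6% of their length in all 3 tissues. That one, 34.8 kb from 31360801 to 31395600 of scaffold 2, was 98.3% bivalent in the ovarian portion, 85.6% in the testicular portion and 84.5% in the testis. The ovarian portion was the most continuous there, in 2 bivalent segments against 5 in the testicular portion and 6 in the testis, and the rest was Polycomb repression at 14.4% in the testicular portion and 15.5% in the testis. The second, 25.6 kb from 119309401 to 119335000 of scaffold 7, was 100% bivalent in the ovarian portion, 98.4% in the testicular portion and 99.2% in the testis. It stood alone in Polycomb chromatin, which filled 95.5% of its 20 kb flanks in the ovarian portion, 94.5% in the testicular portion and 94% in the testis. The third, 24.8 kb from 73845401 to 73870200 of scaffold 6, was 97.6% bivalent in the ovarian portion, 95.2% in the testicular portion and 99.2% in the testis.

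Ranks 4 to 6 lay together on scaffold 2. They ran for 22.2 kb from 33737801, 22.0 kb from 33639601 and 21.4 kb from 33673201. Their bivalent share was 99.1% to 100% in the ovarian portion, 99.1% in the testicular portion and 94.4% to 96.4% in the testis. The only other state in the testis was active enhancer, at 3.6% to 5.61%. A domain of 17.6 kb starts 51.4 kb after the start of the 22.2 kb domain; the run of these 4 domains was picked out after its values were seen.

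The seventh domain, 21.4 kb from 119614201 of scaffold 8, was 98.1% bivalent in the ovarian portion, 91.6% in the testicular portion and 98.1% in the testis. Its flanks were mostly bivalent too, at 81% in the ovarian portion, 81% in the testicular portion and 84% in the testis. The eighth, 20.8 kb from 104322001 of scaffold 2, was 97.1% bivalent in the ovarian portion, 97.1% in the testicular portion and 98.1% in the testis. Rank 9, 20.4 kb from 73945201 to 73965600 of scaffold 6, was 100% bivalent in the ovarian portion, the testicular portion and the testis, the only domain of the 10 that was fully bivalent in every tissue. The tenth, 20.4 kb from 19230801 of scaffold 14, was 99.0% bivalent in the ovarian portion, 100% in the testicular portion and 97.1% in the testis.

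Polycomb repression was the usual neighbour of a long segment. Of the edges of long segments, 75.6% met Polycomb repression in the ovarian portion, 82.2% in the testicular portion and 74.6% in the testis. Polycomb repression lay on both sides of 210 of the 355 long segments of the ovarian portion, 235 of the 351 of the testicular portion and 224 of the 398 of the testis. The gap state was next, at 15.1% of edges in the ovarian portion, 11.2% in the testicular portion and 14.9% in the testis, in short pieces with a median of 400 bp, 600 bp and 400 bp in the same tissues. Active enhancer met 7.61% of edges in the ovarian portion, 4.99% in the testicular portion and 8.67% in the testis. The neighbouring Polycomb segment was itself short, with a median of 600 bp in each tissue. Segments of over 2 to 5 kb met Polycomb repression at 78.8% of edges in the ovarian portion, 84.8% in the testicular portion and 80.9% in the testis, shares close to those of the long ones.

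In the 20 kb on each side of the domains, Polycomb repression and further bivalent chromatin covered the most bases, and some of the bivalent bases belong to other members. Polycomb repression covered 32.9% of flank bases in the ovarian portion, 37.4% in the testicular portion and 37.5% in the testis. Bivalent bases covered 32.5% in the ovarian portion, 32.6% in the testicular portion and 35.9% in the testis. Over all bases of the 16 scaffolds, Polycomb repression covered 4.95%, 4.80% and 7.89% and the bivalent state 0.626%, 0.617% and 0.690% in the same tissues, so Polycomb repression was far denser beside the domains than over the scaffolds. The undefined state showed the opposite, with 13.98% of flank bases in the ovarian portion, 14.3% in the testicular portion and 10.6% in the testis, against 60.8%, 61.2% and 57.5% of all bases.

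Another long domain reached into the flanks of 314 of the 510 domains, and 18.1% of flank bases lay inside one. Those bases were chosen by their bivalent calls, so nothing is read from their share. Outside every long domain, the flanks were 20.5% bivalent in the ovarian portion, 20.3% in the testicular portion and 22.7% in the testis. Polycomb repression then led in each tissue, with 38.4% in the ovarian portion, 43.5% in the testicular portion and 45.0% in the testis, and the undefined state covered 17.1%, 17.5% and 12.9%. Single domains varied widely. The Polycomb share of the flanks of 1 domain ran from 0% to 95.5% in the ovarian portion with a median of 29%, from 0% to 94.5% in the testicular portion with a median of 35%, and from 1% to 96.5% in the testis with a median of 33.5%. Polycomb and bivalent states together filled at least 80% of the flanks of 170 domains in the ovarian portion, 199 in the testicular portion and 228 in the testis. No active enhancer or promoter bin lay in the flanks of 245 domains in the ovarian portion, 269 in the testicular portion and 291 in the testis. Neither of these counts has a share over all bivalent regions beside it, so nothing particular to long domains is read from them.

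Here the flanks of the shorter regions are set beside these only for bases outside every long domain, where the choice of domains does not supply bivalent bases. The figures that draw flanks show whole flanks, other long domains included. There the flanks of long domains were 20.5% bivalent in the ovarian portion, 20.3% in the testicular portion and 22.7% in the testis, against 10.1%, 9.18% and 10.2% beside shorter regions. Polycomb repression covered 38.4%, 43.5% and 45.0% beside long domains in the same tissues, against 28.3%, 33.5% and 38.5% beside shorter regions. Beside the 1697 shorter regions of 2 kb and longer, the class nearest in length, it covered 35.3%, 39.95% and 44.3%. Flanks rich in Polycomb repression are thus not particular to the long domains. Poised enhancer took 8.38% beside long domains in the ovarian portion, 5.23% in the testicular portion and 4.67% in the testis, against 15.2%, 11.04% and 10.6% beside shorter regions. Beside the shorter regions of 2 kb and longer it took 10.96%, 8.11% and 7.45%. The ovarian portion had the most poised enhancer and the least Polycomb repression in both sets. A region was placed in either set by its own bivalent calls and the calls of its neighbourhood may go with them, so these are descriptions.

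Further out from the domains than 3 kb, bivalent chromatin thinned and undefined chromatin grew in every tissue, while Polycomb repression did not follow 1 course. In the first 1 kb outside a domain, Polycomb repression covered 47.7% of bases in the ovarian portion, 56.9% in the testicular portion and 50.9% in the testis. Bivalent bases were fewest there, at 23.0% in the ovarian portion, 20.8% in the testicular portion and 22.8% in the testis, which follows from where a domain ends. Other long domains are included in these steps. From 2 to 3 kb bivalent bases reached 43.8%, 42.5% and 46.5%, and in the last step, from 19 to 20 kb, they still covered 25.2% in the ovarian portion, 25.4% in the testicular portion and 29.2% in the testis. Polycomb repression from 1 to 2 kb covered 31.5% in the ovarian portion, 38.3% in the testicular portion and 33.2% in the testis, and from 11 to 12 kb it covered 34.1%, 37.4% and 39.8%. Undefined chromatin grew outward, to 23.7% in the ovarian portion, 24.8% in the testicular portion and 20.04% in the testis in that last step.

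**Figure D2:**
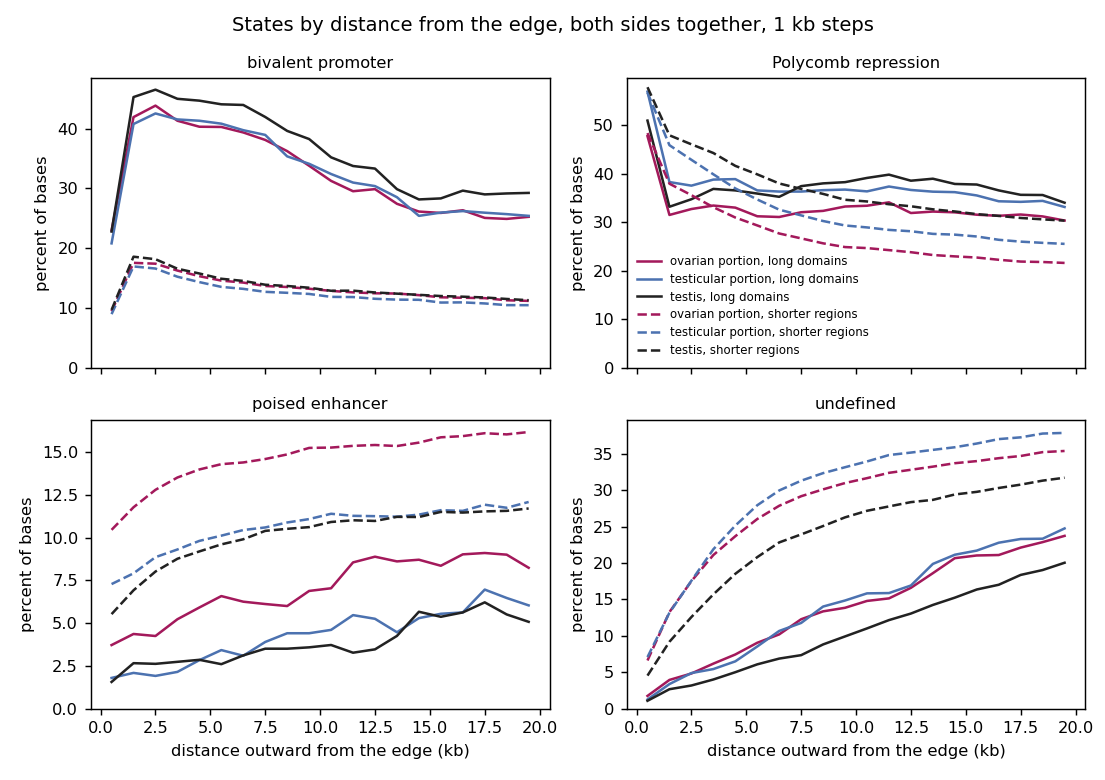
Percent of bases (vertical axes) in the bivalent promoter, Polycomb repression, poised enhancer and undefined states by distance outward from the edge in steps of 1 kb (horizontal axes), both sides together, for long domains (solid lines) and shorter regions (dashed lines) in the 3 tissues (colours). Bivalent bases beside long domains number 43.8%, 42.5% and 46.5% from 2 to 3 kb in the ovarian portion, the testicular portion and the testis, and lie above those beside shorter regions at every step drawn, other long domains included.

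The bivalent share of the whole flanks was larger for longer domains, and outside other long domains it was not. In the ovarian portion the bivalent share of the flanks was 29.3% for the 153 domains of up to 6 kb, 31.5% for the 169 of over 6 to 8 kb, 34.9% for the 135 of over 8 to 12 kb and 38.6% for the 53 over 12 kb. In the testicular portion the same classes held 30.0%, 32.4%, 34.03% and 37.5%, and in the testis 33.2%, 34.4%, 38.9% and 40.7%. Other long domains took up 14.95%, 15.4%, 22.1% and 26.1% of the flanks in these 4 classes. Outside them, the bivalent share of the flanks was 19.5%, 21.4%, 20.2% and 20.8% in the ovarian portion, 19.9%, 21.7%, 19.3% and 18.9% in the testicular portion, and 22.6%, 23.4%, 22.7% and 20.9% in the testis, with no order by length. The 1697 shorter regions of 2 kb and longer had 16.1% in the ovarian portion, 15.3% in the testicular portion and 16.97% in the testis by the same count. The share of domains long in all 3 tissues was 20.3% of those up to 6 kb and 79.2% of those over 12 kb, which the length limit itself favours.

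The next counts use whole flanks. Of the flank bases of long domains 18.1% lay inside other long domains, against 6.3% beside shorter regions of at least 1 kb. The part of those bases in the counts was not tested. Polycomb repression of the flanks was lower in the ovarian portion than in either testicular tissue for most domains. Against the testicular portion it was lower in 337 domains (66.1%, where 67.1% of all bivalent regions of at least 1 kb were lower) and higher in 159 (31.2%, against 30.3% of all regions), with a mean difference of -4.47 percentage points (ovarian minus testicular portion, SD 12.9 over domains, which are not replicates). Set against the testis it was lower in 322 (63.1%, against 72% of all regions) and higher in 175 (34.3%, against 25.7%), with a mean difference of -4.65 (ovarian portion minus testis, SD 12.7). Between the testicular portion and the testis, 251 domains were higher in the testicular portion (49.2%, against 37.8% of all regions) and 253 lower (49.6%, against 59.4%), with a mean difference of -0.178 (testicular portion minus testis, SD 12.7). A lower Polycomb share in the ovarian portion was thus about as common or more common among all regions, and is not particular to the long domains.

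Large shifts of the whole flanks, other long domains included, were rare. A difference of at least 25 percentage points was found upward in 10 domains (1.96%) for the ovarian against the testicular portion, where 2.22% of all regions of at least 1 kb passed, and downward in 26 (5.10%), where 7.31% passed. For the ovarian portion against the testis, 12 domains (2.35%) were past the limit upward, against 1.96% of all regions, and 31 (6.08%) downward, against 13.9%. For the testicular portion against the testis, 22 (4.31%) were past it upward, against 2.16% of all regions, and 15 (2.94%) downward, against 6.34%. The shares for the ovarian against the testicular portion are near those of all regions and say nothing particular about long domains.

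Between tissues, the bivalent cover of a domain usually differed little, and the direction of the larger differences is tied by construction to whose calls chose the domains. Averaged over domains, bivalent cover was 85.8% in the ovarian portion, 86.2% in the testicular portion and 91.9% in the testis. A domain was counted as different when 2 tissues differed by at least 25 percentage points. The ovarian portion was above the testicular portion by that much in 47 domains (9.22%, against 21.2% of all bivalent regions of at least 1 kb) and below it in 54 (10.6%, against 23.4%). It was above the testis in 32 (6.275%, against 18.2%) and below it in 87 (17.1%, against 30.8%). The testicular portion was above the testis in 29 (5.69%, against 15.2%) and below it in 77 (15.1%, against 27%). The calls that chose the domains are the calls compared here, so nothing is read from the shares of all regions. The direction against the testis is not read either: the testis supplied 82 of the 178 domains long in 1 tissue. Among domains chosen from the ovarian portion alone, 8.45% were more bivalent by that much in the ovarian portion than in the testis and 0% less. Among those chosen from the testis alone, 0% were more bivalent in the ovarian portion and 20.1% less. These 0% values are fixed in advance, because a domain chosen from 1 tissue is fully bivalent there. Among those chosen from the testicular portion alone, 2.85% were more and 5.41% less bivalent in the ovarian portion than in the testis. Polycomb repression was higher by that amount in the testicular portion than in the testis in 65 domains (12.7%, against 21% of all regions of at least 1 kb). It was lower in 19 (3.73%, against 12.5%). The active enhancer state was higher by that amount in the ovarian portion than in the testicular portion in 23 domains (4.51%, against 6.95%) and lower in 3 (0.588%, against 2.44%). It was higher than in the testis in 28 (5.49%, against 8.41%) and lower in 3 (0.588%, against 2.51%). In each of these counts the larger direction was also the larger one among all regions, so it is not particular to the long domains.

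**Figure D3:**
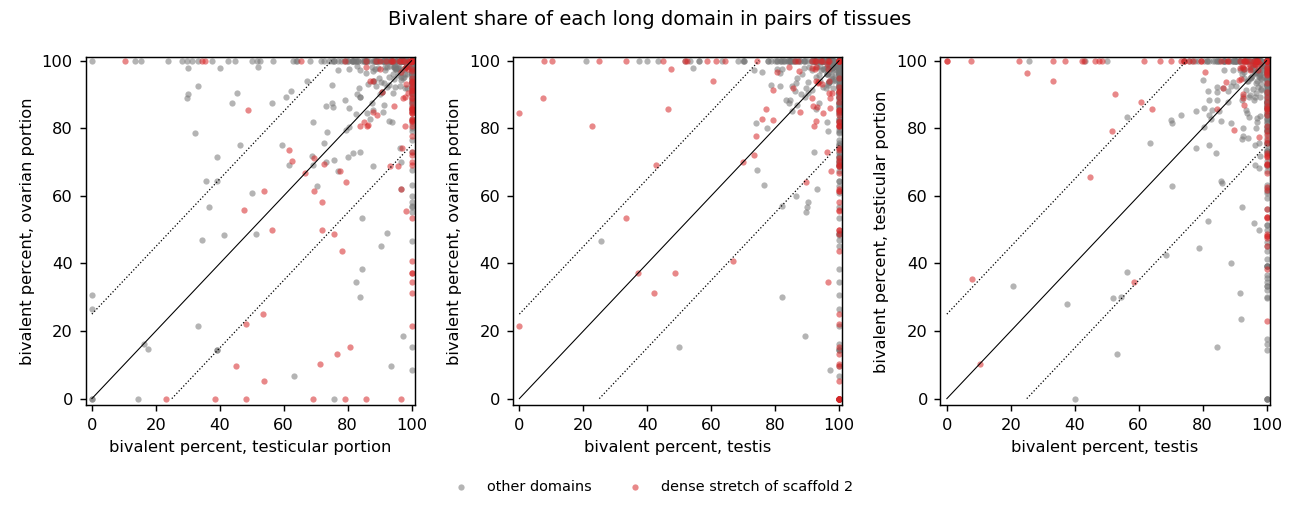
Each point is 1 of the 510 domains, placed by the percent of its length in the bivalent state in 2 tissues (both axes), with the line of equal cover solid and the limits of 25 percentage points dotted; red points lie in the dense stretch of scaffold 2. Points at 100% on an axis are domains fully bivalent in that tissue, and 87 lie beyond the lower limit in the panel of the ovarian portion and the testis, against 32 beyond the upper one.

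The state that took most of a domain was bivalent in all 3 tissues for 434 of 510 (85.1%). Among the other 76, the largest group was 21 domains led by Polycomb repression in the testicular portion and by the bivalent state in the ovarian portion and the testis. Another 12 were led by Polycomb repression in the ovarian portion alone, 8 in the testis alone and 8 in both portions of the ovotestis. The active enhancer state led 14 domains in the ovarian portion, 5 in the testicular portion and 1 in the testis. The leading state of all bivalent regions is not at hand, so these counts are a description only.

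The 5 domains that were most bivalent in the ovarian portion relative to the testicular portion were all fully bivalent in the ovarian portion, and in the testicular portion Polycomb repression took most of each. At 23990801 to 23996800 of scaffold 14 the bivalent share was 100% in the ovarian portion, 0% in the testicular portion and 40% in the testis. Polycomb repression covered all of this domain in the testicular portion and 60% of it in the testis. The domain at 23162801 to 23168800 of the same scaffold was 100% bivalent in the ovarian portion, 13.3% in the testicular portion and 53.3% in the testis, again with Polycomb repression as the remainder. The others, at 32579001 of scaffold 2, 4273201 of scaffold 12 and 116676001 of scaffold 7, were 10.3% to 23.7% bivalent and 57.7% to 89.7% Polycomb repression in the testicular portion.

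The opposite 5, least bivalent in the ovarian portion relative to the testicular portion, held enhancer states in the ovarian portion in 4 cases. At 22978801 to 22985000 of scaffold 14 the bivalent share was 9.68% in the ovarian portion, 93.5% in the testicular portion and 100% in the testis, and the active enhancer share was 90.3%, 3.23% and 0%. The domain at 34623801 to 34629600 of scaffold 2 had no bivalent bin in the ovarian portion, against 96.6% in the testicular portion and 100% in the testis. There the ovarian portion held 41.4% active enhancer, 31.0% poised enhancer and 27.6% Polycomb repression. Active and poised enhancer filled 50% each of the domain at 35588801 to 35594400 of scaffold 2 in the ovarian portion, which was 85.7% bivalent in the testicular portion and 100% in the testis. At 78675601 of scaffold 9, active enhancer took 50% and poised enhancer 34.6% in the ovarian portion, while the domain was 100% bivalent in the testicular portion and 50% in the testis. The exception was the domain at 137059001 to 137066200 of scaffold 4, with 91.7% Polycomb repression in the ovarian portion, none in the testicular portion and 2.78% in the testis.

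Between the ovarian portion and the testis, the 5 domains that were most bivalent in the ovarian portion by comparison all lay on scaffold 2. The first of them, 10.2 kb from 32509601 to 32519800, was 100% bivalent in the ovarian portion, 35.3% in the testicular portion and 7.84% in the testis. Polycomb repression made up the rest, 64.7% in the testicular portion and 92.2% in the testis. At 15073201 to 15082800 the bivalent share was 100% in the ovarian portion, 33.3% in the testicular portion and 20.8% in the testis, with Polycomb repression again the remainder. The domain at 39862201 to 39867400 was 84.6% bivalent in the ovarian portion, 100% in the testicular portion and 0% in the testis, where Polycomb repression covered all of it. In the other direction, 11 domains shared the largest possible difference, with no bivalent bin in the ovarian portion and the bivalent state over their whole length in the testis. Of these 11, 7 lay on scaffold 2 and the other 4 on scaffolds 3, 7, 12 and 16. In the ovarian portion 9 of them held poised enhancer, 8 active enhancer, 6 Polycomb repression and 2 promoter. The median shares were 35.1% active enhancer and 34.5% poised enhancer. In the testicular portion their bivalent share ran from 0% to 96.6% with a median of 48.1%. Among these 11, the most active enhancer in the ovarian portion was found at 33072401 to 33077800 of scaffold 2, with 85.2% there, 51.9% in the testicular portion and none in the testis.

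Between the testicular portion and the testis, 5 domains were fully bivalent in the testicular portion and at most 25.6% bivalent in the testis. In 4 of them Polycomb repression covered 74.4% to 100% of the domain in the testis. In the remaining one, at 38649401 to 38655000 of scaffold 2, the testis held 75% active enhancer and 25% promoter, the testicular portion was 100% bivalent, and the ovarian portion held 64.3% active enhancer and 21.4% bivalent. It was the domain with the most active enhancer in the testis.

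The 5 domains of the opposite direction were fully bivalent in the testis and at most 14.3% bivalent in the testicular portion. At 79815601 to 79825200 of scaffold 16 the bivalent share was 0% in the ovarian portion, 0% in the testicular portion and 100% in the testis. Over its 9.6 kb the ovarian portion held 79.2% active enhancer and 20.8% promoter, and the testicular portion 91.7% and 6.25%. At 72962601 to 72969400 of the same scaffold, active enhancer covered 73.5% in the ovarian portion and 85.3% in the testicular portion, and none of it in the testis. At 105758601 of scaffold 3 neither portion had a bivalent bin, with 70.6% poised enhancer in the ovarian portion and 67.6% Polycomb repression in the testicular portion. The domain at 78937801 of scaffold 5 was 50% promoter and 50% active enhancer in the testicular portion, and the one at 42401 to 48000 of scaffold 12 was Polycomb repression over 100% of its length in the ovarian portion and 85.7% in the testicular portion.

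Active chromatin over most of a domain was seen in few domains. The promoter and active enhancer states together covered at least 50% of 15 domains in the ovarian portion, 5 in the testicular portion and 3 in the testis, 18 domains in all. No share over all bivalent regions is at hand for this count, so nothing particular to long domains is read from it. Active enhancer covered 7.11% of the bases of the shorter regions in the ovarian portion, 4.09% in the testicular portion and 2.67% in the testis. The largest promoter share in the ovarian portion was 54.1% at 15277201 to 15284600 of scaffold 7, where the testicular portion held 8.11% and the testis 0%. That domain was 0% bivalent in the ovarian portion, 75.7% in the testicular portion and 100% in the testis, and its flanks held no Polycomb repression in either portion of the ovotestis and 2% in the testis. The next, at 79933001 to 79939000 of scaffold 8, held 53.3% promoter in the ovarian portion and none in the testicular portion or the testis. In the testicular portion the promoter share was largest in the scaffold 5 domain given above, and in the testis at 21899001 to 21905000 of scaffold 1, with 33.3% promoter there and none in either portion, which were both fully bivalent.

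Domains long in 1 tissue were of mixed kind in the others. Of the 82 long in the testis alone, at least 50% was bivalent in 49 in the ovarian portion and 55 in the testicular portion, and several bivalent segments lay in 56 and 62. No bivalent bin was present in 10 of the 82 in the ovarian portion and in 4 in the testicular portion. Their bases were 52.8% bivalent, 26.2% Polycomb repression, 12.97% active enhancer and 6.03% poised enhancer in the ovarian portion, and 61.2%, 29.3%, 7.52% and 1.10% in the testicular portion. The 49 long in the ovarian portion alone were 68.8% bivalent and 30.3% Polycomb repression in the testicular portion, with no active enhancer, and 71.0% and 26.9% in the testis. The 47 long in the testicular portion alone were 73.2% bivalent and 18.3% Polycomb repression in the ovarian portion and 70.0% and 22.5% in the testis, with 6.92% and 4.92% active enhancer.

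The domains were unevenly spread. Scaffold 2 held 161 of the 510 (31.6%), or 10.5 per 10 Mb, followed by scaffold 6 with 65 (4.65 per 10 Mb) and scaffold 14 with 39 (4.29 per 10 Mb). Over all 16 scaffolds there were 2.66 per 10 Mb, and scaffold 17, with 2 domains, had 0.338. On scaffold 2, segments were long in 89 domains in the ovarian portion, 114 in the testicular portion and 114 in the testis. On scaffold 6 the numbers were 42, 40 and 61, and on scaffold 16 they were 8, 6 and 15, so the testis had the most long segments on both. Scaffolds outside the rule also hold long bivalent segments. Scaffold 18, of 18.4 Mb, held 125 in the ovarian portion, 126 in the testicular portion and 182 in the testis, and scaffold 15, of 88.9 Mb, held 12, 6 and 0.

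**Figure D4:**
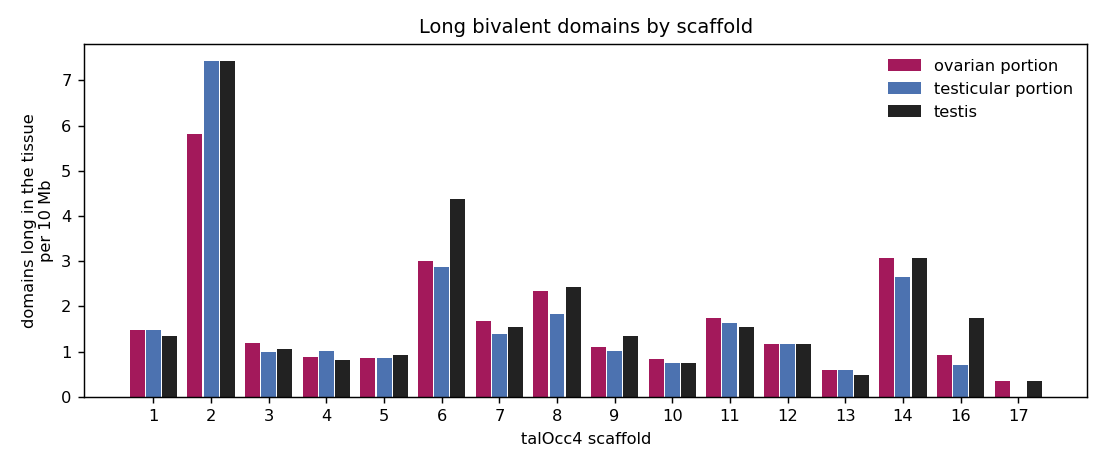
Bars give the number of domains with a segment over 5 kb in the tissue per 10 Mb of scaffold (vertical axis, from 0) for each of the 16 scaffolds (horizontal axis) and the ovarian portion, the testicular portion and the testis (colours). Scaffold 2 stands above the others, with 89 such domains in the ovarian portion, 114 in the testicular portion and 114 in the testis.

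Many domains lay in clusters, defined as domains less than 100 kb apart. There were 218 clusters, of which 120 were single domains and 49 were pairs. The 49 clusters of at least 3 held 292 domains (57.25%), and the 6 clusters of at least 10 held 112 (22.0%). The median distance to the nearest other domain was 8.6 kb; it was under 10 kb for 265 domains and over 1 Mb for 75. Neighbouring domains often lay so close that a short break separated them. For 47 pairs the distance was at most 1 kb, and the bases between were 74.0% Polycomb repression in the ovarian portion, 83.7% in the testicular portion and 72.4% in the testis.

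The largest cluster held 35 domains from 73719001 to 74395200 of scaffold 6, and each of them had a long segment in the testis. The high bivalent cover of the testis there is thus largely set by the choice of domains, and the direction between tissues is not read. A segment over 5 kb was present in 17 of the 35 domains in the ovarian portion, 17 in the testicular portion and 35 in the testis. Fully bivalent were 4 domains in the ovarian portion, 5 in the testicular portion and 34 in the testis. The median domain was 86.2% bivalent in the ovarian portion, 87.0% in the testicular portion and 100% in the testis, and the lowest 16.3%, 16.3% and 99.2%. What was not bivalent was mainly Polycomb repression. Its median share of a domain was 10.7% in the ovarian portion, 13.04% in the testicular portion and 0% in the testis. Active enhancer bins lay in 3 domains in the ovarian portion, 2 in the testicular portion and 0 in the testis.

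The second largest held 26 domains from 34876601 to 35602400 of scaffold 2. Of these, 25 had a long segment in the testis, so the bivalent cover of the testis is again largely set by the choice of domains. What was not bivalent in the ovarian portion was Polycomb repression and enhancer states. The median Polycomb share of a domain was 20.6% in the ovarian portion, 22.9% in the testicular portion and 0% in the testis. For active enhancer the medians were 9.6%, 0% and 0% in the same tissues. The median domain was 54.1% bivalent in the ovarian portion, 77.1% in the testicular portion and 100% in the testis. Long segments were present in 4 domains in the ovarian portion, 10 in the testicular portion and 25 in the testis, and 4 domains had no bivalent bin in the ovarian portion. Active enhancer bins lay in 20 domains in the ovarian portion, 3 in the testicular portion and 5 in the testis, and poised enhancer bins in 12, 2 and 0. In the third, 16 domains from 33196801 to 33806800 of scaffold 2, the tissues were more alike, with long segments in 12 domains in the ovarian portion, 11 in the testicular portion and 13 in the testis. Its median domain was 96.2% bivalent in the ovarian portion, 98.6% in the testicular portion and 96.4% in the testis.

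The following 3 clusters were picked out after their values were seen, and their bivalent shares too depend on whose calls chose the domains. On scaffold 8, 13 domains from 119563201 to 119800600 were long in 10 cases in the ovarian portion, 9 in the testicular portion and 13 in the testis, with no active enhancer bin in any tissue. On scaffold 14, all 10 domains from 19124401 to 19366400 were long in the ovarian portion, the testicular portion and the testis, and none was less than 96.8%, 95.3% and 95.3% bivalent in the same tissues. On scaffold 16, 9 domains from 72805601 to 73068600 were long in 4 cases in the ovarian portion, 0 in the testicular portion and 9 in the testis. Their median bivalent share was 78.6% in the ovarian portion, 46.4% in the testicular portion and 100% in the testis, and active enhancer bins lay in 8, 8 and 0 of the 9.

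**Figure D5:**
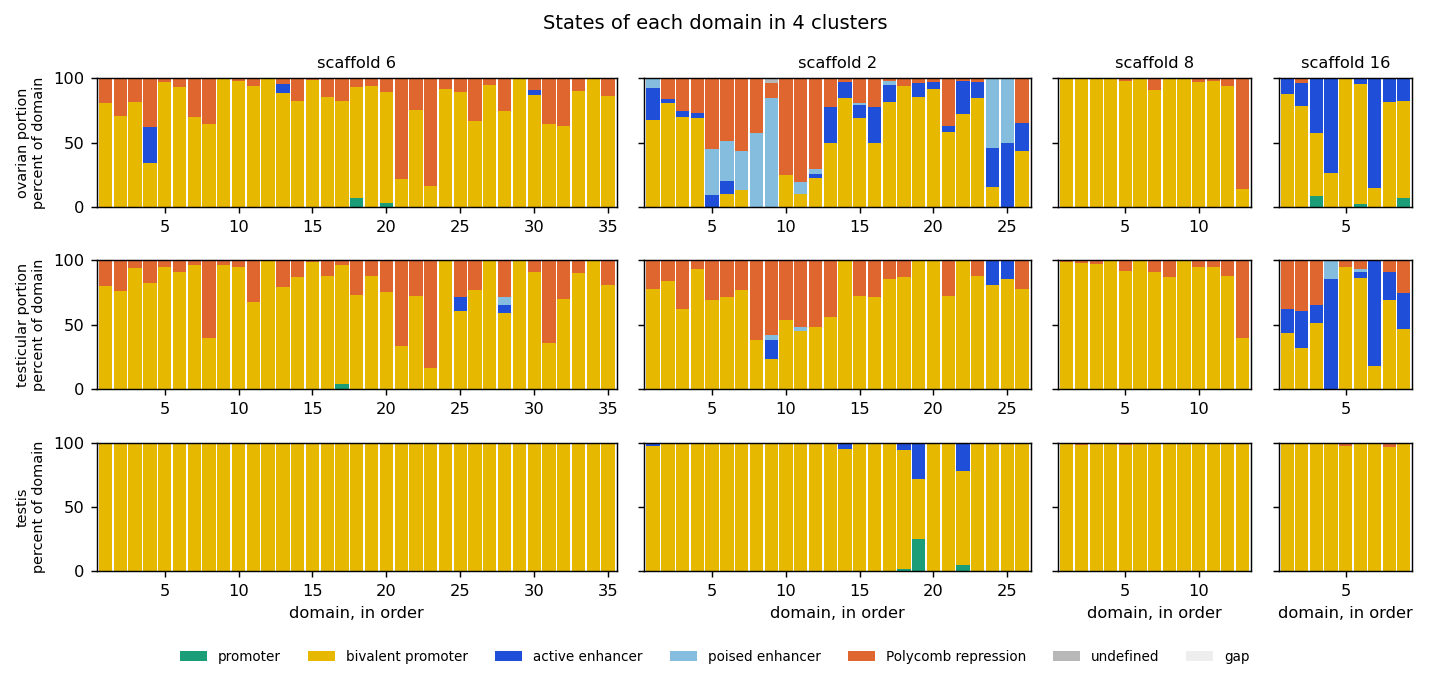
Each bar is 1 domain in its order along the scaffold (horizontal axes), divided into the percent of its length in each state (vertical axes), for the cluster of 35 domains on scaffold 6, of 26 on scaffold 2, of 13 on scaffold 8 and of 9 on scaffold 16 (columns) in the ovarian portion, the testicular portion and the testis (top to bottom). In the testis the bivalent state fills at least 99.2% of every domain of the scaffold 6 cluster, against medians of 86.2% in the ovarian portion and 87.0% in the testicular portion. All 35 of those domains had a long segment in the testis, so the choice of domains largely sets this difference.

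A stretch of 12 Mb on scaffold 2, from 30000001 to 42000000, held 123 of the domains (24.1%) on 0.626% of the bases. It too was picked out after its density had been seen. The density was 102.5 per 10 Mb there and 2.03 over the rest of the 16 scaffolds. Of all bases of the stretch, 19.9% were bivalent in the ovarian portion, 22.3% in the testicular portion and 20.5% in the testis. The gap state was also common, at 19.5% in the ovarian portion, 16.7% in the testicular portion and 18.8% in the testis, against 5.55%, 5.41% and 5.74% over all scaffold bases, and its part in these values was not tested.

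The domains of this stretch and the others are set side by side as a description. Their bases were 77.5% bivalent in the ovarian portion, 87.7% in the testicular portion and 86.5% in the testis, against 90.6%, 87.0% and 94.5% for the 387 domains elsewhere. Active enhancer took 8.26% of their bases in the ovarian portion, 1.88% in the testicular portion and 3.35% in the testis, against 2.34%, 1.51% and 0.100% elsewhere. Their flanks were 13.3% active enhancer in the ovarian portion, 8.996% in the testicular portion and 11.2% in the testis, against 2.77%, 2.59% and 1.62% elsewhere. Within the stretch, 5 domains were more bivalent in the ovarian than in the testicular portion by at least 25 percentage points and 29 were less so, while elsewhere 42 were more and 25 less. Against the testis, the testicular portion was more bivalent by that much in 23 domains of the stretch and less in 21, while elsewhere it was more in 6 and less in 56. These directions are not read, because the calls compared also chose the domains. In the stretch 10 domains were long in the ovarian portion alone, 20 in the testicular portion alone and 27 in the testis alone, against 39, 27 and 55 elsewhere. No share over all bivalent regions of the stretch is at hand.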

How the data were processed

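ChIP-seq of 4 histone marks with 2 replicates each was combined by the authors into 1 deposited segmentation per tissue, whose values are state names, with no count, signal or score that could be used. STAR 2.6.1d and mm9, a mouse build, appear in the submitters' processing notes; the tool behind the mole segmentations is not given in the sources used here. Segments of the bivalent promoter state over 5 kb on the 16 scaffolds were merged over tissues where they shared a base. States were then counted by 200 bp bin inside each domain and in the 20 kb on each side, in Python 3.11.15 with numpy 2.4.6 and pandas 2.3.3, and drawn with matplotlib 3.10.9. The finding of domains and the count of states inside them were checked on simulated segmentations, in which every planted domain was found. The planted segments were unbroken and had the same ends in each tissue that held them. Merging of shifted segments, flanks and clusters was not checked in this way.

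Named are the 10 longest domains, for each pair of tissues the 5 with the largest bivalent difference in each direction, the 3 clusters with the most domains and, per tissue, the 3 domains with the most promoter, active enhancer or Polycomb state, from which the text gives a selection. The domains and limits were chosen with earlier results of these data known. No test was made, as each tissue has 1 segmentation. Other length limits, joined segments, single-tissue sets, scaffold sets, difference limits, cluster distances and flank widths were tried. The mouse segmentations, the talOcc3 gene models and the gene table of MPIMG_talOcc4v2.1 were not used here, and no sequence is shown.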

Additional observations from a re-analysis of the deposited data

How the results depend on the processing

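Of 113 values recomputed for 12 results, 69 stayed close to the reported value, 43 moved by more and 1 changed direction. Close means within 1.5 times for a count and, for a percent, inside a 95% interval over the 510 domains (Wilson). Percents of bases were given the same interval, although they are not shares of domains. For the difference between percents, close means inside a 95% normal interval over the same domains, and a change of direction is a change of sign. Domains are clustered and are not replicates, so these intervals are a yardstick for movement and no error. The number of domains, 510 as reported, was 720 with a limit of 4 kb, 696 with segments within 400 bp joined, 746 with all scaffolds of at least 1 Mb and 387 without the dense stretch. The change of direction concerns the percent of domains at least 25 points more bivalent in the ovarian portion than in the testis minus the percent at least 25 points less, a difference added after the values were seen. It was -10.8 as reported and -5.69 with a limit of 35 points. In the 355 domains of the ovarian set it was 8.45 (8.45% more, 0% less). In the 398 of the testis set it was -20.1 (0% more, 20.1% less). These 0% values are fixed in advance by the choice of the set, so the change of direction shows nothing about the tissues. In the 351 of the testicular set, chosen without the calls of either tissue compared, it was -2.56. With a limit of 8 kb, 184 domains remained, with 90.7% of bases bivalent in the ovarian portion, 88.6% of domains bivalent over at least 50% in each tissue, 3.80% at least 25 points more and 11.4% at least 25 points less bivalent in the ovarian portion than in the testis, and 40.2% in clusters of at least 3 (62.5% with a limit of 4 kb). Joining segments within 400 bp gave 82.5% bivalent bases in the ovarian portion, 82% in the testicular portion and 87.6% in the testis, since the joined breaks are not bivalent. Sets from 1 tissue are 100% bivalent there by construction. The ovarian set was 91.0% bivalent in the testicular portion, with 93.8% bivalent over at least 50% in each tissue and 47.6% clustered. The testicular set was 92.9% bivalent in the ovarian portion and 100% in the testicular portion, with 94.0% bivalent over at least 50% in each tissue, 2.85% more and 5.41% less bivalent in the ovarian portion than in the testis, and 46.7% clustered. Of the testis set, 51.5% were clustered. A difference limit of 15 points gave 11.4% more and 21.6% less bivalent in the ovarian portion than in the testis, and 35 points 10.6% less.

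With all scaffolds of at least 1 Mb, 66.9% of domains were clustered; cluster distances of 50 kb and 200 kb gave 49.4% and 66.9%. Flanks of 40 kb were 28.8% Polycomb repression in the ovarian portion and 32.8% in the testicular portion, and flank bases outside other domains 38.4% in the ovarian portion, 43.5% in the testicular portion and 45.0% in the testis. Without the dense stretch of scaffold 2, an alternative chosen after seeing the data, 90.6% of bases were bivalent in the ovarian portion, 87.1% of domains were bivalent over at least 50% in each tissue, 3.62% were more and 13.2% less bivalent in the ovarian portion than in the testis, and 49.6% were clustered. Unless the construction is named, the cause was not tested. No paired analysis was possible because each tissue has 1 segmentation that combines its replicates. The depth is unknown, so a short break in a domain cannot be told from a bin with few reads.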
